A study of Mus musculus with 6 samples.

Results

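The cell cycle and proliferation genes described here are 46 genes chosen by symbol from a hand-written list. They cover the cyclins and their kinases, the E2F and retinoblastoma families, Cdk inhibitors, DNA replication, nucleotide supply and mitosis. All 46 were found among the 24421 gene rows of bulk RNA-Seq counts from gastrocnemius-plantaris (GP) muscle. The study deleted Net39, a muscle nuclear envelope gene, in adult mice. All mice were male, of strain background B6C3F1, 5 months of age and 3 months past tamoxifen, which both groups received. The 3 mice labelled Ctrl carried Net39 fl/fl without Cre. The 3 mice labelled cKO carried HSACreERT2;Net39 fl/fl, in which human skeletal actin sequences drive the tamoxifen-inducible Cre in muscle fibres. By the study's methods this Cre is not made in satellite cells or in the heart.

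The targeted gene went against the labels. Net39 is listed under its older symbol Ppapdc3, and its counts were 310, 321 and 217 in the libraries labelled Ctrl against 5365, 4340 and 6080 in those labelled cKO. Its level was thus 18.6-fold higher where the label gives the deletion (log2 fold change 4.22 ± 0.17 SE, edgeR adjusted p = 0.000161). The paper reports the opposite direction, with reduced Net39 mRNA in cKO mice by bulk RNA-Seq of GP muscle. Whether the labels of these libraries were exchanged was not tested. The floxed allele has its loxP sites around the first exon, while the counts are summed over the whole gene. Such counts do not measure that exon alone. Every direction below is stated for the libraries as labelled, and each would reverse if the Net39 counts were taken as the guide. The log2 fold change is always the labelled cKO level over the labelled Ctrl level.

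Depth ran from 33860001 to 38201728 counts per library for labelled Ctrl and from 39191239 to 48839910 for labelled cKO, and no library repeated another. Levels are given as CPM, the counts of a gene scaled to a common library size, after TMM normalization, a scaling that limits the weight of a few very abundant genes. The defining genes of skeletal fibre, Acta1 and Ckm among them, were abundant in every library. Of 7 fibre markers, 4 were higher in labelled cKO by edgeR's adjusted p under 0.05, against 12.6% of all genes tested. The summed CPM of the 7 ranged over 83002 to 108155 for labelled Ctrl and 142109 to 187504 for labelled cKO. Myh4, the fast myosin gene, made up most of that difference (25521 ± 10635 against 70116 ± 11637 CPM, SD, n = 3), while Acta1 (log2 fold change 0.19) and Mb (-0.68) overlapped between groups and did not pass.

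Cells enter the division cycle when D-type cyclins with Cdk4 or Cdk6 phosphorylate the retinoblastoma protein, which frees E2F factors to switch on genes for DNA synthesis. Cyclin E with Cdk2 then drives S phase, the MCM helicase unwinds DNA at replication forks, and cyclin B with Cdk1 and the Aurora and Polo kinases carry the cell through mitosis. Adult muscle fibres do not divide, and whole muscle also holds satellite cells, leukocytes and connective tissue cells that can. Bulk counts do not say which of these cells a transcript came from. In bulk tissue, fewer cells of a type and less RNA per cell cannot be told apart.

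Both directions occurred among the 46 genes. At an adjusted p under 0.05, 9 members were higher in the libraries labelled Ctrl (19.6% of the 46 and 21.4% of the 42 that could be tested, against 11.8% of the 14180 genes tested). These were the G1 genes Ccnd3, Cdk4, Ccne1, E2f1, E2f2 and Rb1, the arrest gene Rprm, the helicase subunit Mcm6 and the nucleotide gene Rrm2. In the other direction, 4 members were higher in the libraries labelled cKO (8.70% of the 46 and 9.52% of those tested, against 12.6% of all genes tested), namely the inhibitor gene Cdkn2c, the nucleotide genes Rrm1 and Tk1 and the mitotic kinase gene Aurka. With a fold change over 2 as a further requirement, 5 members were higher in labelled Ctrl (Rprm, Mcm6, E2f2, Rrm2 and Ccne1), where 3.92% of all genes tested passed, and 1 was higher in labelled cKO (Aurka), where 2.13% passed. Without cKO mouse 1 or cKO mouse 3 the 9 became 4, and without Ctrl mouse 1 they became 5. The share of all genes tested that was higher in labelled Ctrl fell in these fits too, to 6.18%, 5.46% and 5.63%. The 4 stayed the same genes without any 1 library.

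Of the 46 members, 42 had enough counts to be tested. Cdk1, Ccnb1, Bub1 and Aurkb did not, and 29 were tested and did not pass. The CPM ranges of the groups did not overlap for 19 members (41.3% of the 46 and 45.2% of those tested), near the 43.9% of all genes tested. The median log2 fold change of the 42 tested members was -0.28 and that of all genes tested was -0.015. With total counts in place of TMM these medians were -0.53 and -0.27, so directions of small changes depend on the scaling. The median of the members was -0.11 without Ctrl mouse 1, -0.43 without Ctrl mouse 2, -0.17 without Ctrl mouse 3 and -0.11 where at least 10 counts were required in each library. With 3 libraries against 3, the exact two-sided permutation test of a single gene cannot go below p = 0.1, which each of the 19 members without overlap reached.

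**Figure D1:**
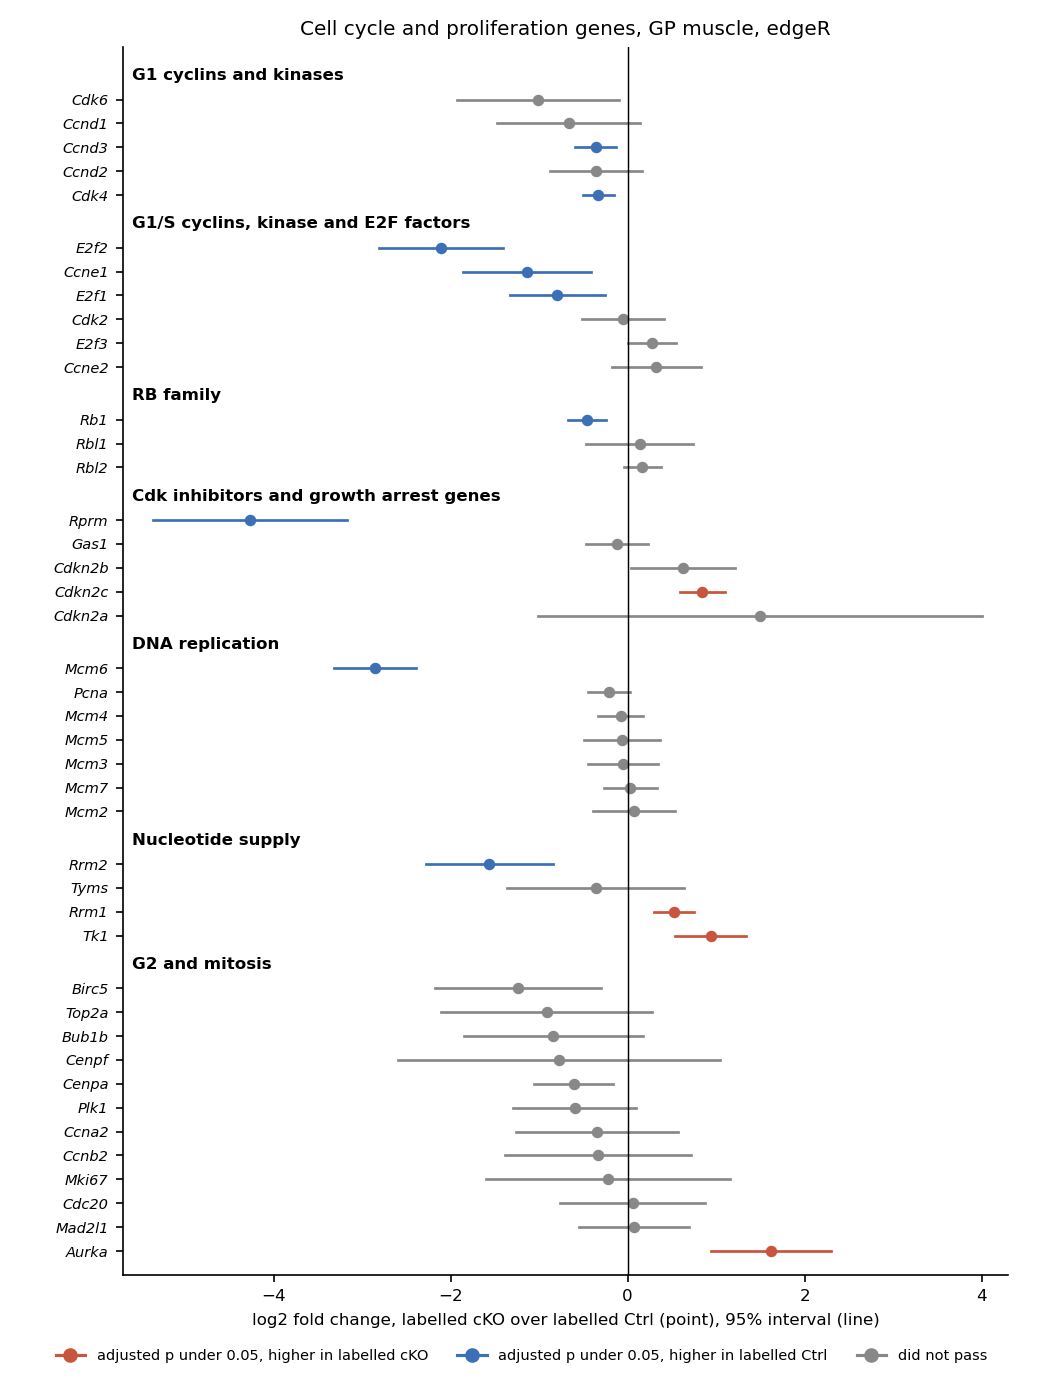
Log2 fold change of the 42 tested members (x axis, labelled cKO over labelled Ctrl), grouped by role, with points for edgeR's estimates and lines for 95% intervals. The 9 blue members were higher in labelled Ctrl, with Rprm at -4.27 and Mcm6 at -2.85 farthest left, and the 4 red ones were higher in labelled cKO, with Aurka at 1.62 farthest right.

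Markers of other cells moved between the labelled groups too. Of 14 macrophage and leukocyte markers, 10 could be tested, and 7 were higher in labelled Ctrl and 0 in labelled cKO. Of all genes tested, 11.8% were higher in labelled Ctrl and 12.6% in labelled cKO. The summed CPM of the 14 was 193.7 to 218.6 against 88.7 to 123.5. Among the 7 were Cd68, Csf1r and the C1q genes, and none of the 14 was at 0 in any library. Ptprc was among the 3 tested that did not pass (log2 fold change -0.80, edgeR adjusted p = 0.0772). Of 9 fibro-adipogenic progenitor markers, 5 were higher in labelled Ctrl, including Col3a1 and Ly6a. Pdgfra, their defining receptor (log2 fold change -0.18), Dcn (0.20), Smoc2 (0.29) and Gsn (-0.33) did not pass, and the sum was 2464 to 2555 CPM against 1842 to 2128 CPM. The sum of 7 satellite cell and myoblast markers overlapped, at 50.7 to 63.7 CPM against 50.9 to 77.6 CPM. Of these 7, Myog, which is expressed in differentiating myoblasts and in denervated fibres, was higher in labelled Ctrl, while Pax7, which marks satellite cells, had a log2 fold change of -0.096 (adjusted p = 0.707). Myod1 (0.87, adjusted p = 0.0836), Myf5 (0.58), Calcr (0.47) and Chodl (0.42) had estimates above 0 that did not pass, Vcam1 was at -0.037, and the median of the list was 0.42. The part of these cells in the results on members was not tested.

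The 5 G1 cyclin and kinase genes all had estimates below 0, with a median of -0.36 against -0.015 for all genes tested. Of the 5, 2 passed the test as higher in labelled Ctrl, by small amounts (40.0%, against 11.8% of all genes tested). Ccnd3 encodes cyclin D3, the D-type cyclin that persists in differentiated muscle cells. Its levels were 22.7, 20.4 and 20.9 CPM in labelled Ctrl and 15.5, 18.5 and 15.8 CPM in labelled cKO. The groups did not overlap, and Ccnd3 was 1.29-fold higher in labelled Ctrl (log2 fold change -0.36 ± 0.099 SE, edgeR adjusted p = 0.0373). Cdk4, its kinase partner, measured 29.7, 29.6 and 30.7 CPM against 23.1, 25.3 and 23.3 CPM. That difference was 1.26-fold (log2 fold change -0.33 ± 0.073, adjusted p = 0.0192), with replicates of labelled Ctrl close together and no overlap.

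Both calls were near the limit. Without Ctrl mouse 1, Ctrl mouse 2, Ctrl mouse 3, cKO mouse 1 or cKO mouse 3, the adjusted p of Ccnd3 was 0.0614 to 0.126. That of Cdk4 was 0.0576 to 0.0706 without Ctrl mouse 1, Ctrl mouse 2, cKO mouse 1 or cKO mouse 3. Both genes also share exon bases with a gene on the other strand, Ccnd3 with Bysl (361 of 8775 bases) and Cdk4 with Tspan31 (641 of 3249 bases), and whether counting used strand is not given in the sources used here.

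The other G1 genes spread more between mice. Ccnd1, the growth factor-induced cyclin D1, ranged from 11.2 to 18.0 CPM in labelled Ctrl and from 4.57 to 12.05 CPM in labelled cKO (log2 fold change -0.67, adjusted p = 0.197). Ccnd2 ranged from 14.5 to 22.8 CPM against 11.1 to 16.7 CPM (-0.36, adjusted p = 0.272). Cdk6, the second cyclin D kinase, was low in every library, at 0.410 to 0.684 CPM against 0.159 to 0.367 CPM. Its groups did not overlap, but its adjusted p was 0.0999 at a log2 fold change of -1.02.

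E2f2 had the largest difference among the 6 listed cyclin E, Cdk2 and E2F members. It encodes an activating E2F factor and lies on chromosome 4 (GRCm38, plus strand, 136172394 to 136196057). Its levels were 6.49, 13.2 and 13.04 CPM in labelled Ctrl and 2.23, 3.09 and 2.25 CPM in labelled cKO. Ctrl mouse 1 was low for its group yet still above every library labelled cKO, and E2f2 was 4.32-fold higher in labelled Ctrl (log2 fold change -2.11 ± 0.30, edgeR adjusted p = 0.0051). The call held in each fit without 1 library.

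E2f1, the factor best known for S phase entry, was read at 1.38, 1.38 and 1.01 CPM against 0.790, 0.701 and 0.682 CPM. It was 1.74-fold higher in labelled Ctrl, just inside the limit (log2 fold change -0.80 ± 0.23, adjusted p = 0.0439). Ccne1, which encodes the S phase cyclin E1, was at 0.638, 0.941 and 0.656 CPM against 0.254, 0.415 and 0.341 CPM. Its fold was 2.20 (log2 fold change -1.14 ± 0.31, adjusted p = 0.0365). Both sets of libraries stayed apart, though at few counts. E2f1 kept its call only without Ctrl mouse 3, and its adjusted p was 0.0824 to 0.137 without Ctrl mouse 1, Ctrl mouse 2 or any 1 of the cKO mice. Ccne1 kept its call only without cKO mouse 2, and its adjusted p was 0.0532 to 0.120 without any other library.

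The paralogs did not follow. E2f3, the third activating E2F gene, measured 15.5, 17.8 and 19.2 CPM in labelled Ctrl and 20.8, 23.6 and 19.3 CPM in labelled cKO, with a log2 fold change of 0.28 (95% interval 0.0083 to 0.55, adjusted p = 0.120). Ccne2, the second cyclin E gene, had a log2 fold change of 0.33 (-0.18 to 0.83). Cdk2, the kinase of both, ranged from 5.03 to 7.09 CPM against 4.60 to 6.77 CPM (log2 fold change -0.053, interval -0.51 to 0.41). The 95% interval of E2f2, -2.81 to -1.41, does not meet that of E2f3.

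Among the retinoblastoma family, Rb1 alone passed. It encodes the pocket protein that holds E2F factors inactive, and it was read at 47.3, 44.4 and 52.3 CPM in labelled Ctrl and at 33.2, 37.9 and 33.4 CPM in labelled cKO. The groups stood apart by 1.38-fold (log2 fold change -0.46 ± 0.092, edgeR adjusted p = 0.0135), and the adjusted p was 0.0508 without cKO mouse 3. Rb1 shares 896 of its 6015 exon bases with Lpar6 and Rcbtb2 on the other strand. Its relatives Rbl1 (p107) and Rbl2 (p130) had log2 fold changes of 0.13 and 0.17 with adjusted p values of 0.737 and 0.214, and with total counts both were below 0 (-0.11 and -0.089). Rbl2, the pocket protein of resting cells, was at 51.5 to 63.0 CPM in labelled Ctrl and 61.8 to 64.9 CPM in labelled cKO, which overlap.

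Of the 5 listed genes that restrain division, 1 passed in each direction and 3 did not pass. Each direction is 20.0% of the 5, against 12.6% of all genes tested higher in labelled cKO and 11.8% in labelled Ctrl. Cdkn2c encodes p18, an inhibitor of Cdk4 and Cdk6 that is made as myoblasts differentiate. It measured 8.10, 8.54 and 9.90 CPM in labelled Ctrl and 16.3, 14.96 and 16.4 CPM in labelled cKO. Every library labelled cKO lay well above the other group, by 1.80-fold (log2 fold change 0.85 ± 0.11, edgeR adjusted p = 0.00365), and the call held in each fit without 1 library.

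Rprm had the largest difference of all tested members, from few counts. It met the count filter only through the labelled Ctrl libraries, where it was high, so its rank and call carry that selection. It encodes Reprimo, a p53-induced protein that arrests cells in G2, and is a single-exon gene of 1460 bases on chromosome 2 (GRCm38, minus strand, 54084093 to 54085552). Its counts were 33, 36 and 52 in labelled Ctrl and 2, 3 and 1 in labelled cKO. Over the groups, 121 counts stood against 6, a ratio of 20.3 after scaling for library size (exact 95% interval 9.06 to 56.4, counting error only). The fitted log2 fold change was -4.27 ± 0.47 with an adjusted p of 0.00272, and the call held in each fit without 1 library.

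The remaining restraining genes did not pass. Cdkn2b, which encodes the Cdk4 inhibitor p15, ranged from 1.02 to 1.61 CPM in labelled Ctrl and from 1.58 to 2.41 CPM in labelled cKO (log2 fold change 0.62, adjusted p = 0.111). Cdkn2a, the locus of the senescence proteins p16 and p19Arf, varied most between mice. Its counts were 1, 16 and 40 in labelled Ctrl and 16, 18 and 142 in labelled cKO, so that cKO mouse 3 alone held most of them (log2 fold change 1.496 ± 1.07, adjusted p = 0.338). Gas1, a membrane protein named for growth arrest, had the highest level per kilobase of exon of all members, and its log2 fold change was -0.12 (interval -0.47 to 0.23).

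Mcm6 stood apart from the other replication genes. The protein is 1 of the 6 subunits, MCM2 to MCM7, that form the ring of the replicative helicase in equal numbers. The gene lies on chromosome 1 (GRCm38, minus strand, 128331590 to 128359664). Its levels were 22.6, 31.8 and 33.6 CPM in labelled Ctrl and 3.50, 4.88 and 3.79 CPM in labelled cKO. No library came near the other group. Mcm6 was 7.22-fold higher in labelled Ctrl (log2 fold change -2.85 ± 0.20, interval -3.31 to -2.39, edgeR adjusted p = 0.000627), a call that held in each fit without 1 library.

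The genes of the other 5 subunits had log2 fold changes between -0.077 (Mcm4) and 0.070 (Mcm2), with adjusted p values of 0.636 to 0.885. Their 95% intervals together ran from -0.50 to 0.53, so differences of the size seen for Mcm6 lay outside all of them. With total counts, Mcm2 and Mcm7 turned to -0.19 and -0.23. Per kilobase of exon, Mcm6 was 3.25, 4.82 and 4.95 times the mean of the other 5 in labelled Ctrl, and it ranked 1 of 6 in each of these libraries. In labelled cKO it was at 0.491, 0.809 and 0.538 times that mean and ranked 5, 4 and 5 of 6. The subunit genes were thus at unequal levels in both groups, with Mcm6 above the rest in one and below their mean in the other. Mcm7 shares most of its transcript with the gene model Gm5487 (81.2% together with the neighbouring Ap4m1), so its counts are uncertain. Mcm6 has no near-identical stretch of 75 bases in transcripts of other genes, the only sequences searched. Pcna, the sliding clamp of the fork, was at 20.9 to 24.7 CPM against 17.7 to 20.8 CPM and did not pass (log2 fold change -0.21, adjusted p = 0.167). Of its transcript, 51.4% is shared with a pseudogene.

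**Figure D2:**
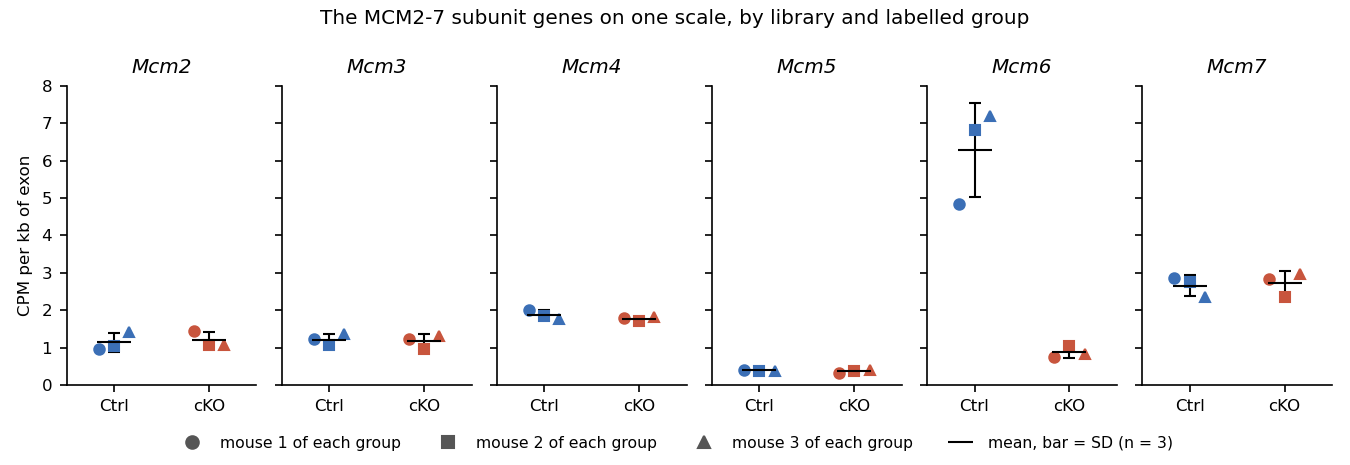
Level of the 6 MCM2-7 subunit genes in CPM per kilobase of exon (y axis, one scale for all panels), with points for mice by labelled group, horizontal lines for means and bars for SD (n = 3). Mcm6 lies at 4.85 to 7.20 in labelled Ctrl and 0.750 to 1.05 in labelled cKO, while the groups overlap for the other 5 genes.

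The promoters of Mcm6 and of 2 subunit genes that did not pass the test are shown to let their E2F and CCAAT letters be compared. Sequences are from RefSeq on GRCm38.p6, given on the gene's strand and ending at the base before the RefSeq start. For Mcm6 and Aurka that start lies outside the gene coordinates given in the text. Capitals mark matches on either strand to TTGGCGC or TTCCCGC, which are forms of the E2F site, or to CCAAT, the NF-Y site.
Mcm6, chr1:128359706-128359825, minus strand: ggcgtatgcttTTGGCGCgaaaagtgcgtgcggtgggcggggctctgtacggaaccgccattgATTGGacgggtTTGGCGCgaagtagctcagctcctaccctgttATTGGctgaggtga
Mcm5, chr8:75109334-75109508, plus strand: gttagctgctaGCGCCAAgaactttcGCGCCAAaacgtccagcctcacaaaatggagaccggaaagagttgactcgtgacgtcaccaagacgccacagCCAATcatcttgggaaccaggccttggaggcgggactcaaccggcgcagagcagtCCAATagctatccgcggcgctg
Mcm7, chr5:138171884-138172058, minus strand: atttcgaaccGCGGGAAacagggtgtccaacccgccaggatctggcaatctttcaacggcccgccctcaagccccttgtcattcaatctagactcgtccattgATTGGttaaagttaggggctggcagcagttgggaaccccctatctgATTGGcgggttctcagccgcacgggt

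The stretches of Mcm6 and Mcm5 each hold 2 E2F and 2 CCAAT matches, and that of Mcm7 holds 1 and 2. Over the whole windows, Mcm3 held 3 E2F and 3 CCAAT matches, and Mcm2, which did not pass either, held 0 E2F matches, 1 CCAAT match and 1 match to TTTGAA, described with the mitotic genes. Promoter windows of 250 bases before to 50 after the start were found for 39 of the 46 members, with 45 windows, and Ccnd1, Ccnd2, Ccne2, Rb1, Mcm4, Ccna2 and Aurkb had none in the table. An E2F match was present in 14 of the 45 windows (31.1%), against 6.81% of all 32851 windows, and a CCAAT match in 29 (64.4%), against 37.4%. By direction, 2 of the 8 matched members that were higher in labelled Ctrl and 2 of the 4 that were higher in labelled cKO held an E2F match. E2F and CCAAT matches share letters in a window of Mcm7 and of Ccnb1. A match is a description of letters and says nothing about binding in these muscles.

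Nucleotide supply genes split within one enzyme. Ribonucleotide reductase, which makes deoxyribonucleotides, consists of a large subunit encoded by Rrm1 and a small subunit encoded by Rrm2 in dividing cells. Rrm1 was read at 31.9, 33.2 and 36.9 CPM in labelled Ctrl and at 52.0, 43.4 and 51.3 CPM in labelled cKO, 1.44-fold higher in the latter (log2 fold change 0.52 ± 0.098, edgeR adjusted p = 0.0114). Rrm2 was read at 2.96, 2.51 and 1.48 CPM against 0.621, 0.857 and 0.863 CPM, 2.95-fold higher in labelled Ctrl (log2 fold change -1.56 ± 0.31, adjusted p = 0.0131). The groups overlapped for neither subunit, and the 95% intervals, 0.29 to 0.75 and -2.28 to -0.84, lie on opposite sides of 0. Without cKO mouse 1 the adjusted p of Rrm2 was 0.0507. Rrm2b, the small subunit used by resting cells and not on the list of 46, was at 27.1, 28.6 and 31.4 CPM against 37.3, 39.1 and 40.5 CPM, higher in labelled cKO (log2 fold change 0.42 ± 0.080, adjusted p = 0.0118). Its adjusted p was 0.0527 without cKO mouse 3 and 0.190 with total counts.

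Tk1 encodes the thymidine kinase of the cytosol, which salvages thymidine and is best known from S phase cells. Its levels were 3.09, 3.57 and 3.83 CPM in labelled Ctrl and 7.31, 5.38 and 7.43 CPM in labelled cKO. It was 1.92-fold higher in labelled cKO without overlap (log2 fold change 0.94 ± 0.17, edgeR adjusted p = 0.0102), and the call held in each fit without 1 library, as did that of Rrm1. Tyms, the thymidylate synthase gene, was at 0.386 to 1.09 CPM against 0.467 to 0.795 CPM and did not pass (log2 fold change -0.36, interval -1.36 to 0.64).

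**Figure D3:**
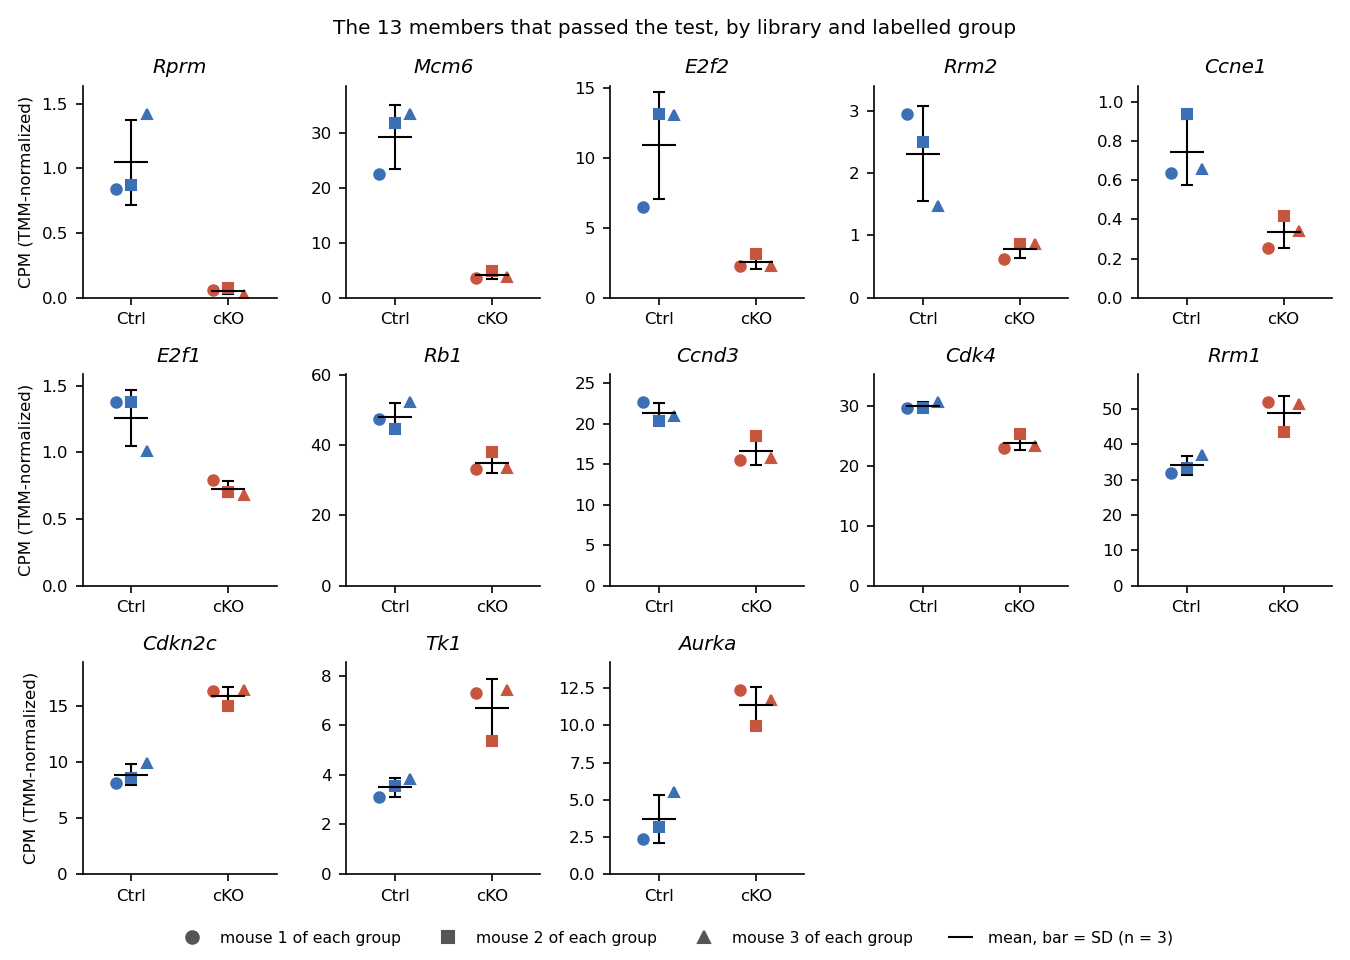
CPM after TMM normalization (y axis, each panel on its own scale from 0) of the 13 members that passed the test, with points for mice by labelled group, horizontal lines for means and bars for SD (n = 3). The 9 members from Rprm to Cdk4 are higher in labelled Ctrl and the 4 from Rrm1 to Aurka in labelled cKO, with no overlap in any panel.

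Genes of G2 and mitosis were low, and 12 of the 16 were tested. Aurka alone passed, higher in labelled cKO (8.33% of those tested, against 12.6% of all genes tested). In labelled Ctrl 0 were higher, against 11.8% of all genes tested. Mki67, the usual marker of dividing cells, measured 1.38, 0.507 and 1.72 CPM in labelled Ctrl and 0.395, 0.935 and 1.70 CPM in labelled cKO. Its groups overlapped widely, and its log2 fold change was -0.22 ± 0.59 (interval -1.60 to 1.151, edgeR adjusted p = 0.807). This interval leaves room for a change of 2-fold in either direction.

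Aurka encodes Aurora A, the kinase of centrosomes and spindle poles. The gene lies on chromosome 2 (GRCm38, minus strand, 172356190 to 172370535). Its levels were 2.38, 3.19 and 5.52 CPM in labelled Ctrl and 12.4, 9.97 and 11.7 CPM in labelled cKO, so that Ctrl mouse 3, the highest of its group, still had less than any library labelled cKO. Aurka was 3.08-fold higher in labelled cKO (log2 fold change 1.62 ± 0.29, adjusted p = 0.00942), a call that held in each fit without 1 library. Per kilobase of exon, its level was 1.46 ± 0.646 (SD, n = 3) in labelled Ctrl and 4.49 ± 0.492 in labelled cKO, against 0.120 ± 0.0623 and 0.101 ± 0.0654 for Mki67.

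The other 11 tested mitotic genes had log2 fold changes from -1.24 to 0.072. Of the 12 tested, 9 had estimates below 0, and Aurka was not among these 9. The median of the 12 was -0.47, against -0.015 for all genes tested. With total counts, Mad2l1 and Cdc20 were below 0 too. The nearest to the limit were Cenpa, the histone of centromeres, and Birc5, which encodes survivin. Cenpa was at 2.52 to 3.06 CPM in labelled Ctrl and 1.66 to 2.26 CPM in labelled cKO (log2 fold change -0.61, adjusted p = 0.0563), and Birc5 at 0.241 to 0.547 CPM against 0.159 to 0.182 CPM (-1.24, adjusted p = 0.0623). Cenpa passed by DESeq2 (adjusted p = 0.0468) and without cKO mouse 2 (0.0334), Birc5 without Ctrl mouse 2 (0.0466), and both with total counts. Neither set of groups overlapped, and the same held for Plk1, the Polo-like kinase gene (-0.60, adjusted p = 0.180). Top2a (-0.92), Bub1b (-0.84), Cenpf (-0.78), Ccna2 (-0.35), Ccnb2 (-0.34), Mad2l1 (0.072) and Cdc20 (0.056) overlapped between groups, with adjusted p values of 0.196 to 0.924. Without 1 library, the estimate ran from -1.99 to -0.38 for Cenpf, -1.30 to -0.65 for Top2a and -1.16 to -0.55 for Bub1b.

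The 4 untested genes were near the floor of detection. Cdk1, the mitotic kinase itself, was at 0.145 to 0.358 CPM in labelled Ctrl and 0.0847 to 0.273 CPM in labelled cKO, and Aurkb at 0.217 to 0.306 CPM against 0.0779 to 0.254 CPM. Of the Ccnb1 transcript, 51.9% is nearly identical to transcripts of other genes, Ccnb1-ps among them, so its counts are uncertain. Ccnb1 had 0 counts in cKO mouse 1, and Bub1 had 0 in Ctrl mouse 2, cKO mouse 1 and cKO mouse 2. A count of 0 allows up to 3 counts, so these are limits and not absence.

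Without Aurka, the 15 mitotic genes summed to 11.98, 7.43 and 11.1 CPM in labelled Ctrl and to 5.73, 7.37 and 8.93 CPM in labelled cKO, ranges that overlap. The mice of a group differed. Ctrl mouse 1 was highest of its group for 8 of the 15, Ctrl mouse 3 for 6 and Ctrl mouse 2 for 1. Within labelled cKO, mouse 3 was highest for 9, mouse 1 for 4 and mouse 2 for 2. Aurka itself was highest in Ctrl mouse 3 and in cKO mouse 1.

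**Figure D4:**
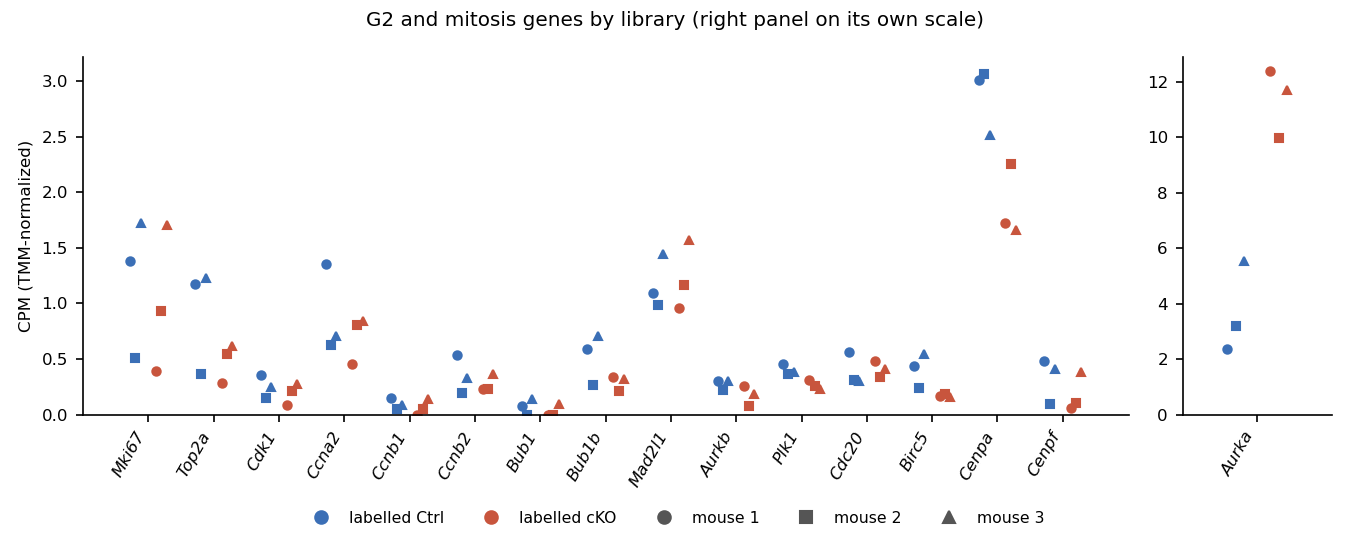
CPM after TMM normalization (y axis) of the 16 G2 and mitosis genes, with blue for labelled Ctrl, red for labelled cKO and the shape of a point for the mouse number; the right panel has its own scale. On the left the groups overlap for all genes but Plk1, Birc5 and Cenpa, while Aurka lies at 2.38 to 5.52 in labelled Ctrl and 9.97 to 12.4 in labelled cKO.

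The promoters of Aurka and of Ccnb2, a cyclin gene of mitosis that did not pass, are shown because CCAAT repeats are typical of mitotic genes. Capitals mark CCAAT on either strand.
Aurka, chr2:172370571-172370650, minus strand: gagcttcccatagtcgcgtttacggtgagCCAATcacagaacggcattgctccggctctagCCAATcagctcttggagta
Ccnb2, chr9:70421555-70421654, minus strand: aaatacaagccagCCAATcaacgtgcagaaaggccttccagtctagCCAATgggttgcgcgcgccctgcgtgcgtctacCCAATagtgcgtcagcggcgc

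These stretches, again from RefSeq on GRCm38.p6, hold 2 and 3 CCAAT matches and no E2F match. Over all 14 mitotic genes with a window, 12 held CCAAT, and 10 held TTTGAA, the cell cycle homology region (CHR) bound by the DREAM repressor, which is present in 17.9% of all windows. Aurka thus has the letters common to its class, most of which did not pass the test.

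A second hand-written list held 131 other cell cycle genes. Of the 113 tested, 11 were higher in labelled cKO (9.73%) and 8 in labelled Ctrl (7.08%), against the 12.6% and 11.8% of all genes tested. With a fold change over 2, the counts were 2 and 4, where 2.13% and 3.92% of all genes tested passed. The 11 became 3 without Ctrl mouse 1, Ctrl mouse 2 or cKO mouse 3 and 4 without cKO mouse 1, and the 8 became 3 or 4 without any 1 library. Over all genes tested, the share higher in labelled cKO was 5.33% without Ctrl mouse 1, 6.06% without Ctrl mouse 2, 5.34% without cKO mouse 3 and 6.2% without cKO mouse 1. The share higher in labelled Ctrl was 10.6% without Ctrl mouse 3, 12.5% without cKO mouse 2 and 5.46% to 6.57% without any other library. Tpx2 encodes the protein that activates Aurora A on spindles. It was at 1.38, 1.35 and 1.67 CPM in labelled Ctrl and 3.56, 9.06 and 5.14 CPM in labelled cKO, with no overlap (log2 fold change 2.01 ± 0.35, edgeR adjusted p = 0.00885). Among the 8, the smallest p was that of E2f8, an atypical E2F that represses E2F targets, at 2.30, 1.57 and 1.94 CPM against 0.141, 0.130 and 0.341 CPM (log2 fold change -3.19 ± 0.39, adjusted p = 0.0034).

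Other named genes of that list fell on both sides. Higher in labelled Ctrl were Lin37 (log2 fold change -0.75), a subunit of DREAM, the inhibitor genes Cdkn1a (-1.39) and Cdkn1c (-0.48), and Ccnf (-1.24), which encodes cyclin F. Cdkn1a, the p21 gene, spread widely, at 123, 67.0 and 85.1 CPM in labelled Ctrl and 49.3, 36.1 and 19.8 CPM in labelled cKO (edgeR adjusted p = 0.0282, and 0.0532 to 0.0916 without Ctrl mouse 1, cKO mouse 2 or cKO mouse 3). Ccnf had an adjusted p of 0.0545 to 0.113 without any 1 library, and Cdkn1c one of 0.0511 to 0.0567 without Ctrl mouse 2, cKO mouse 1 or cKO mouse 3. Beside Tpx2 and Rrm2b, the histone variant gene H2afz (0.62), the origin recognition gene Orc3 (0.32) and the cyclin H gene Ccnh (0.41) were higher in labelled cKO. Without 1 library, Orc3 lost its call in 4 of 6 fits (Ctrl mouse 1, Ctrl mouse 2, cKO mouse 1 and cKO mouse 3, adjusted p up to 0.0639) and Ccnh in 3 (Ctrl mouse 1, Ctrl mouse 2 and cKO mouse 3, up to 0.0704), while Tpx2, E2f8, Lin37 and H2afz kept theirs. With total counts, Orc3 and Ccnh did not pass (adjusted p = 0.473 and 0.283). Of 41 origin and fork genes, 3 were higher in labelled cKO and 0 in labelled Ctrl, 10 of the 39 tested had an unadjusted p under 0.05 (38.8% of all genes tested had one), and their median log2 fold change was 0.028.

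Per kilobase of exon, the members ranged widely. In labelled Ctrl, Gas1 was highest (13.9 ± 1.39 CPM per kilobase, SD, n = 3), followed by Pcna (9.37 ± 0.825), Cdk4 (9.24 ± 0.181), Rb1 (7.98 ± 0.657), Rbl2 (7.47 ± 0.779) and Mcm6 (6.29 ± 1.26). Pcna and Cdk4 differed by less than the SD of Pcna, and Rb1 and Rbl2 by less than the SD of either. In labelled cKO the order was Gas1 (12.8 ± 2.41), Rbl2 (8.38 ± 0.208), Pcna (8.09 ± 0.648), Cdk4 (7.35 ± 0.374), Cdkn2c (5.92 ± 0.302) and Rb1 (5.79 ± 0.441), and Mcm6 was at 0.870 ± 0.156. There Rbl2 and Pcna differed by less than the SD of Pcna, and Cdkn2c and Rb1 by less than the SD of either. Gas1 and Rbl2 share 589 of 2961 and 1585 of 7558 exon bases with genes on the other strand, so their levels are uncertain like those of Cdk4, Rb1 and Pcna. Exon bases are also shared with a gene on the other strand for Ccna2, Ccnd1, Ccnd2, Ccne2, Cdc20, Cdk2, Cdk6, Mcm7, Plk1 and Tk1 (83 of 5198 bases for Tk1, the one of these that passed the test). The lowest member in both groups was Bub1, at 0.016 ± 0.016 and 0.007 ± 0.012.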

How the data were processed

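Bulk RNA-Seq was performed on GP muscle of 3 mice labelled Ctrl and 3 labelled cKO. Per the labels, the authors used FastQC 0.11.8, Trimmomatic 0.39, HISAT2 2.1.0 on mm10 and featureCounts 1.6.2, and deposited raw counts per gene, as whole numbers without normalization. The annotation and the strand setting are not given in the sources used here. The test was edgeR 4.0.16 under R 4.3.3 (TMM, filterByExpr, quasi-likelihood F test) without covariates, with Benjamini-Hochberg adjustment over all 14180 genes tested. Calls required an adjusted p under 0.05. The steps were tested on simulated data. Standard errors were derived from the F statistic. The p-values measure the spread between these mice.

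CPM was divided by the union of exons in GENCODE M21 (GRCm38) where genes were compared. Permutation tests used Python 3.11.15 and SciPy 1.17.1. Every member that was called and Mki67 were given by library, and of the other cell cycle genes the 5 with the smallest p in each direction were named. Alternatives were scaling by DESeq2 size factors or by total counts, filters of none or of 10 counts in every library, the Wald test of DESeq2 1.42.0, a block on mouse number, leaving out 1 library and a fold change limit of 2. The members, roles, gene lists and marker lists were chosen with earlier results of these data known. Counting error alone sets the interval of Rprm. RefSeq promoter windows were searched on both strands. The study's single-nucleus data were not used here.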

Additional observations from a re-analysis of the deposited data

How the results depend on the processing

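All 13 called members kept their direction under each alternative in which they were tested, and 7 of them (E2f2, Cdkn2c, Mcm6, Rrm1, Tk1, Aurka and Rprm) were called in each fit without 1 library. Rprm and Ccne1 could not be tested where at least 10 counts were required in every library. The count of members higher in labelled cKO stayed at 4 except with a fold change over 2, where it was 1. The count higher in labelled Ctrl, 9, became 4 with the mouse number as a replicate block and 5 with a fold change over 2, and was 4 to 9 without 1 library, lowest without cKO mouse 1 or cKO mouse 3 and 5 without Ctrl mouse 1. The labels do not say that mice of the same number were paired. The correlations of same-numbered deviations were 0.084, -0.215 and -0.0020, within the -0.217 to 0.194 of differently numbered mice. With 3 mice a group these correlations cannot settle pairing, and the block has no basis in the labels. For the other cell cycle genes, the 11 higher in labelled cKO became 3 with total counts, 5 with the block, 2 with a fold change over 2 and 3 to 13 without 1 library, and the 8 higher in labelled Ctrl became 5 with DESeq2 size factors, 20 with total counts, 5 with no filter, 5 with the block, 4 with a fold change over 2 and 3 to 4 without 1 library. Total counts moved the median of all genes to -0.27 and the calls over all genes from 1786 higher in labelled cKO and 1668 in labelled Ctrl to 673 and 4074. That scaling also turned Rbl1 to -0.11, Rbl2 to -0.089, Mcm2 to -0.19, Mcm7 to -0.23, Mad2l1 to -0.18 and Cdc20 to -0.21, none of them called, and brought Cdk6, Pcna, Birc5 and Cenpa past the limit in labelled Ctrl. Without 1 library, the log2 fold changes that changed sign ran from -0.23 to 0.12 for Cdk2, -0.038 to 0.43 for Rbl1, -0.12 to 2.73 for Cdkn2a, -0.27 to 0.0040 for Gas1, -0.10 to 0.27 for Mcm2, -0.17 to 0.051 for Mcm3, -0.16 to 0.0087 for Mcm5, -0.053 to 0.11 for Mcm7, -0.85 to 0.14 for Mki67, -0.55 to 0.074 for Ccna2, -0.64 to 0.10 for Ccnb2, -0.16 to 0.25 for Mad2l1 and -0.095 to 0.41 for Cdc20. The causes were not tested. The median over the members, -0.28, was -0.53 with total counts, -0.11 with at least 10 counts in every library and -0.43 to -0.11 without 1 library. Ccne1 and E2f1 were not called with no filter (adjusted p 0.0523 and 0.0633) or by DESeq2 (0.0534 and 0.0644). Genes under about 1 CPM, most of them mitotic, are limited by counts, and with 3 mice a group the 95% intervals of Mki67, Top2a and Cenpf reach past a fold of 2.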

Other observations

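Of the other marker lists, the 7 slow fibre markers had sums of 5283 to 10411 CPM for labelled Ctrl against 322 to 2948 CPM for labelled cKO, and 2 of the 7, Tnnt1 and Myl2, were higher in labelled Ctrl by edgeR's adjusted p. The 4 markers of embryonic and regenerating fibre summed to 216 to 285 CPM against 95.5 to 146 CPM; the embryonic myosin gene Myh3 and Ncam1 were higher in labelled Ctrl and the perinatal myosin gene Myh8 in labelled cKO. Smooth muscle and pericyte markers gave 3 of 6 higher in labelled Ctrl, Schwann cell markers 1 of 6, and endothelial and adipocyte markers 0 of 7 and 0 of 5. Of all genes tested, 11.8% were higher in labelled Ctrl and 12.6% in labelled cKO. Of 5 red blood cell markers, the 4 haemoglobin genes were listed at 0 in every library, and Alas2 did not pass. The part of these cells in the results on cell cycle genes was not tested.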
